A study of Oryzias latipes with 60 samples.

Results

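The 60 genes described here had the largest fall of median level under trametinib in young medaka (Oryzias latipes), a rice fish kept as a laboratory vertebrate, when the smaller of the falls in 2 genotypes was taken as the measure. They were chosen by measured values, from the 17144 genes whose read count scaled to library size (CPM) averaged at least 1, among the 20459 genes of the deposited table. For each gene the median log2 CPM of DMSO fish was subtracted from that of trametinib fish, in transgenic and in wild-type fish separately, the larger of the 2 differences was the score, and the 60 genes with the lowest score are the members. Whole fish were sequenced after poly-A selection, 60 fish in 10 groups, and a library is treated here as a single fish, although no label spells that out. The transgenic fish carry xmrk, a mutant receptor tyrosine kinase of the epidermal growth factor receptor family, always active, known for causing melanoma in hybrids of Xiphophorus fish. The promoter behind the transgene is not given in the sources used here. Transgenic fish received trametinib at 20 nM (10 fish), its vehicle DMSO (5 fish), cisplatin at 70 µM (10 fish), saline as the vehicle of cisplatin (5 fish) or no treatment (5 fish), and wild-type fish received the same 5 regimes with 5 fish each. All fish were 3 to 4 weeks old and about 10 mm long. Drug and vehicle fish were kept in petri dishes for 5 days, whereas untreated fish remained under regular housing.

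Trametinib inhibits MEK, the kinase that phosphorylates and activates ERK. Active ERK drives transcription of immediate early genes and of feedback inhibitors of its own pathway, and receptors of the epidermal growth factor family, such as xmrk, signal through it. Cisplatin, a platinum drug, damages DNA by crosslinking it. The files name genes by Ensembl identifier only, and 0 of the 20459 identifiers matched the reference table at hand, so no name, function, position or sequence is given for any member, and the known targets and inhibitors of the ERK pathway could not be looked up. The members are therefore ordered by how they behave.

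Total counts lay between 34788594 and 67018564 per library, and the mean of a member over the 60 libraries lay between 49.6 and 35300 reads. Nothing in the labels pairs fish or gives a batch, and the sharing of dishes among fish is not recorded here, so dish and group cannot be told apart. In 6 libraries the scaling factor of edgeR's TMM method was under 0.8, an unusual library composition. These were transgenic trametinib fish 63 (0.775), wild-type DMSO fish 47 (0.788), fish 21 (0.292) and fish 31 (0.606) of the transgenic cisplatin group, fish 40 (0.679) of the wild-type cisplatin group and transgenic saline fish 17 (0.234). Counts of members called in the tested comparisons are given with and without them, and single calls that were lost without them are named. In whole-fish RNA, fewer cells of a type and less RNA per cell cannot be told apart.

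The values that chose the members are given first, as a description without a test. The difference of medians between trametinib and DMSO fish ran from -6.05 to -1.39 on the log2 scale in transgenic fish, with a median of -2.19, and from -4.82 to -1.37 in wild-type fish, with a median of -1.85. Over all 17144 genes the medians of the same differences were -0.02 and -0.00. The limit of 60 fell at no gap in the values. The last members inside it were ENSORLG00000017882, with differences of -4.96 in transgenic and -1.38 in wild-type fish, and ENSORLG00000019197, with -5.41 and -1.37. The first genes outside it were ENSORLG00000019889, with differences of -1.36 in transgenic and -2.17 in wild-type fish, and ENSORLG00000020046, with -3.69 and -1.36.

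**Figure D1:**
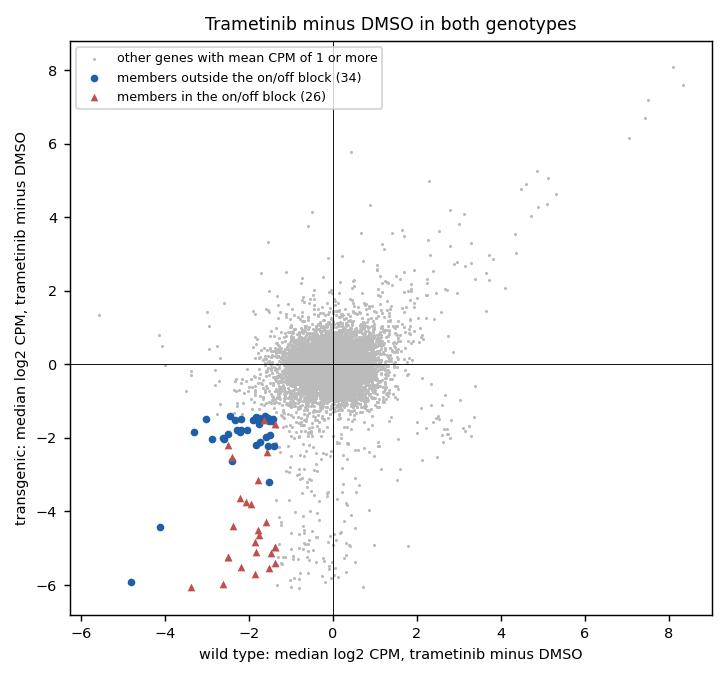
Difference of median log2 CPM, trametinib minus DMSO, for each gene with a mean CPM of 1 or more: transgenic fish on the vertical axis, wild-type fish on the horizontal axis. Grey points are genes outside the member list, blue circles 34 members and red triangles the 26 members that share an on/off pattern among fish; the triangles stretch far down the transgenic axis, to -6.05, while their wild-type differences stay between -3.38 and -1.37.

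The 60 genes were of 2 kinds, which the plot of differences between trametinib and DMSO marks by colour. In the 35 fish that the rule did not use (untreated, saline and cisplatin, group means removed), 25 members followed ENSORLG00000007271, itself a member and chosen as a landmark after its values were seen, which makes 26 with it. Their Pearson correlation with it lay between 0.88 and 0.99 over these fish, and between 0.93 and 0.99 in the 31 of them without a low scaling factor. The other 34 members had correlations between -0.48 and 0.23 with it (-0.44 to 0.18 in the 31 fish), so no member fell between the 2 ranges. Among the 26, the median correlation of a pair of genes was 0.95 (0.96 in the 31 fish), and among the 34 it was 0.08 (0.02). These correlations are descriptions over fish that share libraries and scaling. Of all 17144 genes, 399 correlated above 0.5 with ENSORLG00000007271, so the pattern reaches well beyond the members.

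In the 26 members the level swung widely among the fish of a group. Of them, 25 fell below 1 CPM in at least 1 fish, and ENSORLG00000013525, named after its values were seen, had a lowest value of 2.57 CPM. ENSORLG00000002406, the member with the largest spread within groups, had a lowest value of 0.431, a median of 1.24 and a highest value of 459 CPM in transgenic trametinib fish, and 0.420, 80.8, 0.468, 248 and 259 CPM in the 5 transgenic DMSO fish. In wild-type fish it had 129, 2.45, 324, 2.31 and 0.522 CPM under trametinib and 283, 3.74, 84.5, 15.4 and 3.32 CPM in DMSO. Both trametinib groups held fish as high as the highest DMSO fish and fish at a few CPM or less, and each pair of groups overlapped over most of its range. The 459 CPM was of fish 63, a library of low scaling factor. The next transgenic trametinib fish stood at 229 CPM, below the highest transgenic DMSO fish.

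The same gene was as uneven in fish that saw neither agent. It had 200.4, 0.718, 78.7, 1567 and 0.878 CPM in transgenic saline fish, and 127, 1.13, 0.465, 0.541 and 81.4 CPM in untreated transgenic fish. In wild-type fish it had 206, 0.723, 1.52, 1.08 and 104 CPM in cisplatin, 225, 289.9, 1.61, 0.664 and 0.545 CPM in saline, and 0.385, 161, 163, 1.63 and 37.8 CPM without treatment. High and low fish stood side by side in every one of these groups.

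The landmark gene ENSORLG00000007271 reached 10 CPM or more in 27 of the 60 fish. By group these were 4 of 10 transgenic trametinib fish, 3 of 5 in DMSO, 5 of 10 in cisplatin, 3 of 5 in saline and 2 of 5 untreated, and 2 of 5 fish in each of the 5 wild-type groups. The median of the transgenic trametinib group thus fell among low fish (0.293 CPM) and that of the transgenic DMSO group among high fish (17.0 CPM), although both groups held both kinds. In wild-type fish the share of high fish was 2 of 5 in both groups, and the medians were 1.05 CPM under trametinib and 3.93 CPM in DMSO, each the third of 5 ordered values.

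ENSORLG00000020027, ENSORLG00000002983 and ENSORLG00000017881, among the 6 members with the lowest scores, showed the same alternation. ENSORLG00000020027 had a lowest value of 0.466, a median of 1.01 and a highest value of 469.7 CPM in transgenic trametinib fish, against 0.420, 69.4, 0.712, 261 and 183 CPM in transgenic DMSO fish. ENSORLG00000017881 had 6.92, 0.182, 34.4, 0.133 and 0.104 CPM in wild-type trametinib fish, against 33.1, 0.526, 8.83, 1.2 and 0.213 CPM in wild-type DMSO fish. In both cases the highest trametinib fish exceeded the highest DMSO fish of the same comparison. For ENSORLG00000020027 that fish was fish 63, a library of low scaling factor. The next transgenic trametinib fish stood at 252 CPM, below the highest DMSO fish at 261 CPM.

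For these 26 genes the size of the contrast depended on whether a median or a mean was taken, and for some of them its sign did too. The median over the 26 genes of edgeR's log2 fold change, which compares group means, was -0.55 in transgenic and 0.19 in wild-type fish, whereas the median over the genes of the difference of medians was -4.73 and -1.84. The fold change was positive for 3 of the 26 in transgenic and for 14 in wild-type fish. In none of the 26 did every trametinib fish lie below every DMSO fish in either genotype. The fall of the median was the larger one in transgenic fish for 24 of the 26, against 13 of the other 34. The SD of log2 CPM within groups had a median of 3.54 over the 26 genes, 0.80 over the 34 and 0.41 over all 17144 genes. As a set, these 26 were therefore lower under trametinib in both genotypes by their medians only, and they are called the on/off members from here on.

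**Figure D2:**
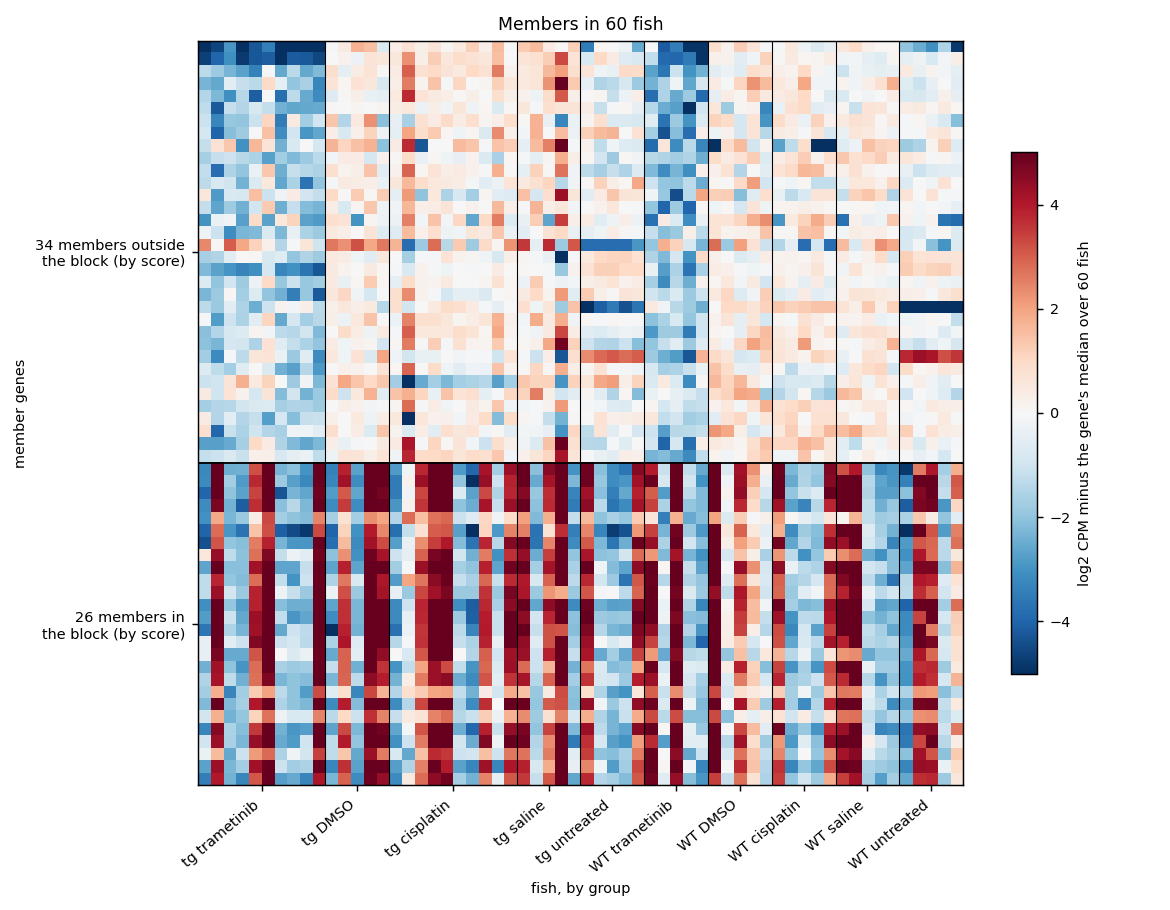
Level of each member (rows) in each of the 60 fish (columns, by group): log2 CPM minus the gene's median over all fish, blue for lower and red for higher. In the lower block the 26 on/off members switch together from fish to fish within every group, and in the upper block the 34 other members are blue through most of the transgenic trametinib (left) and wild-type trametinib columns.

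The map of levels in all fish shows the remaining 34 members lower through most trametinib columns, the order for which the rule chose them. ENSORLG00000013728, with the lowest score of all members, had a lowest value of 0, a median of 0.0979 and a highest value of 0.722 CPM in transgenic trametinib fish, and 5.51, 7.64, 19.1, 16.0 and 3.41 CPM in transgenic DMSO fish. The sums behind these values were 95 reads in 10 trametinib fish and 2719 reads in 5 DMSO fish. Every transgenic trametinib fish lay below every DMSO fish, by a difference of medians of -5.91. In wild-type fish it had 5.58, 0.280, 0.483, 0.155 and 0.157 CPM under trametinib and 10.2, 6.53, 13.6, 8.96 and 5.48 CPM in DMSO. Wild-type fish 48, with 5.58 CPM, was the 1 fish under trametinib that reached the DMSO range, and the difference of medians was -4.82.

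ENSORLG00000000766 separated the groups in both genotypes. It had a lowest value of 0.212, a median of 0.602 and a highest value of 1.41 CPM in transgenic trametinib fish, and 11.8, 13.7, 9.72, 18.5 and 17.9 CPM in transgenic DMSO fish. Wild-type fish had 5.02, 0.769, 0.760, 0.998 and 0.366 CPM under trametinib and 14.2, 14.0, 8.28, 10.2 and 26.3 CPM in DMSO. No trametinib fish reached any DMSO fish, and wild-type fish 48 was again the highest of its group. The differences of medians were -4.43 in transgenic and -4.12 in wild-type fish.

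ENSORLG00000017906 was the steadiest member within groups, with a mean SD of 0.48 on the log2 scale. Its lowest, median and highest values in transgenic trametinib fish were 2.17, 5.09 and 23.0 CPM, against 57.6, 47, 42.5, 57.5 and 45.3 CPM in transgenic DMSO fish. Wild-type values were 32.2, 6.18, 14.2, 3.21 and 13.6 CPM under trametinib and 54.1, 49.7, 38.8, 36.4 and 39.1 CPM in DMSO. The groups did not overlap in either genotype, and the gap was narrow in wild-type fish, where fish 48 came close to the lowest DMSO fish.

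ENSORLG00000018051, ENSORLG00000016919 and ENSORLG00000019478 had the largest mean CPM of the members, and their groups overlapped. ENSORLG00000018051 had a lowest value of 90.0, a median of 269 and a highest value of 1321 CPM in transgenic trametinib fish, against 758, 514, 905, 1695 and 614 CPM in transgenic DMSO fish. Among wild-type fish the values were 149, 209, 364, 164 and 312 CPM under trametinib and 722, 968, 456, 957 and 335 CPM in DMSO. A single pair of wild-type fish crossed, the trametinib fish at 364 and the DMSO fish at 335 CPM, while in transgenic fish the highest trametinib fish exceeded all but 1 of the DMSO fish. The DMSO fish at 335 CPM was fish 47 and the trametinib fish at 1321 CPM was fish 63, both libraries of low scaling factor. The next transgenic trametinib fish stood at 591 CPM. ENSORLG00000016919 ranged from 96.3 to 796 CPM in transgenic trametinib fish and from 241 to 1669 CPM in transgenic DMSO fish, and from 224 to 488 CPM in wild-type trametinib fish and from 135 to 1921 CPM in wild-type DMSO fish. The 135 CPM was again that of fish 47, and the other wild-type DMSO fish stood at 920 CPM or more, above all wild-type trametinib fish. ENSORLG00000019478 ranged from 25.6 to 187 CPM in transgenic trametinib fish and from 185 to 303 CPM in transgenic DMSO fish, and from 59.5 to 146 CPM in wild-type trametinib fish and from 138 to 496 CPM in wild-type DMSO fish.

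**Figure D3:**
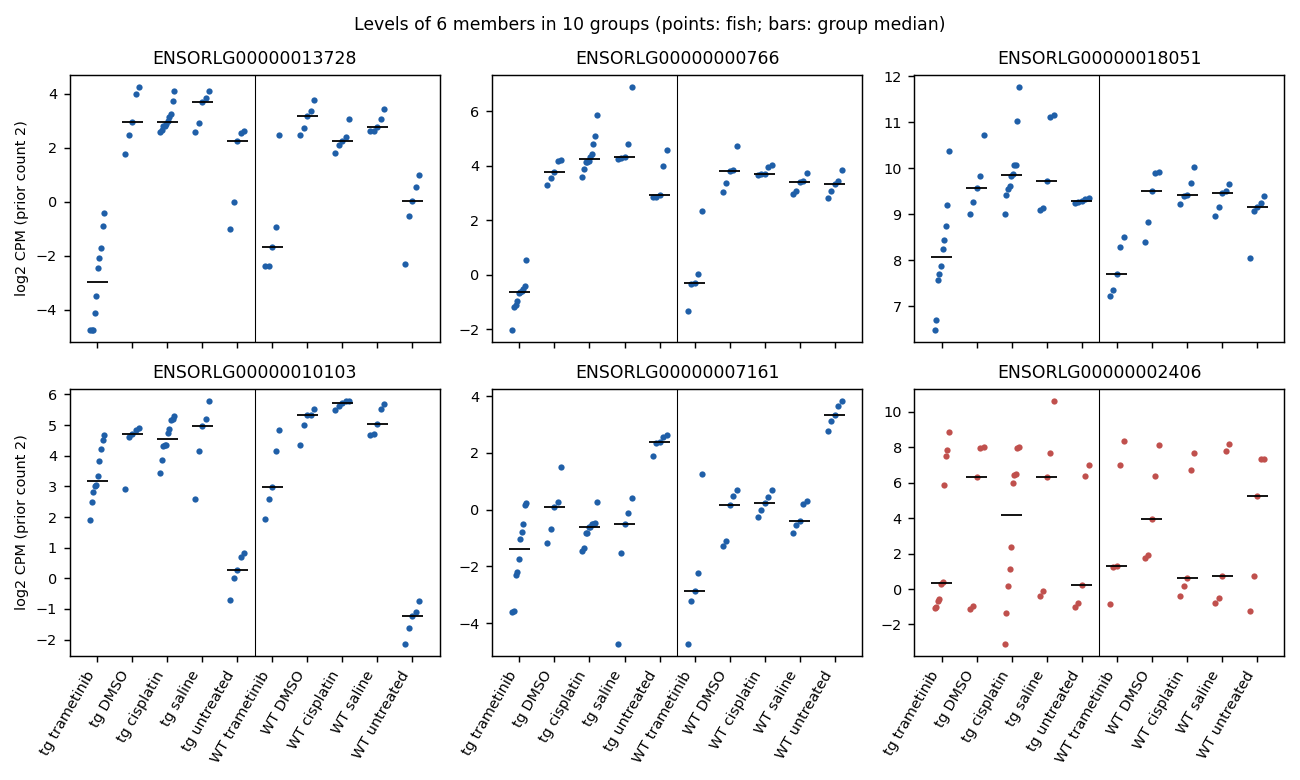
Level of 6 members (log2 CPM, vertical axis) in the 10 groups, transgenic (tg) left and wild type (WT) right of the line in each panel; points are fish and bars group medians. ENSORLG00000013728 and ENSORLG00000000766 have their lowest medians in the trametinib groups, ENSORLG00000010103 and ENSORLG00000007161 are set apart by the untreated groups, and ENSORLG00000002406 is split into high and low fish in every group.

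Counted over the members, every trametinib fish lay below every DMSO fish for 6 members in transgenic fish, where 0.548% of the 17144 genes did, for 13 members in wild-type fish (2.87% of the genes) and for 3 members in both genotypes (0.0817%). All of them belonged to the 34. The 3 were ENSORLG00000000766, ENSORLG00000017906 and ENSORLG00000015619, the last named after its values were seen. In the edgeR fit over all genes, 8 members were called lower in trametinib than in DMSO transgenic fish (0.444% of 18706 genes tested were called lower) and 12 in wild-type fish (3.62%), again all among the 34. Since the rule used this contrast, nothing is read from these counts.

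The levels in the other groups are given beside those of the 2 that chose the members. In transgenic fish the trametinib median lay below the untreated, the saline and the cisplatin medians in 29 of the 34 members, in wild-type fish in 30, and in 28 in both, where 4429, 3831 and 1923 of the 17144 genes did so. The median over the 34 members of the trametinib minus untreated difference was -1.40 in transgenic and -1.60 in wild-type fish, with -0.02 and -0.00 over all genes. The DMSO median lay above the untreated median in 25 of the 34 in either genotype, with a median difference of 0.40 in transgenic and 0.51 in wild-type fish and 0.06 and -0.01 over all genes. The rule itself favoured low trametinib and high DMSO medians, and the groups differ also by housing or vehicle, so these are descriptions and nothing is read from the counts.

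**Figure D4:**
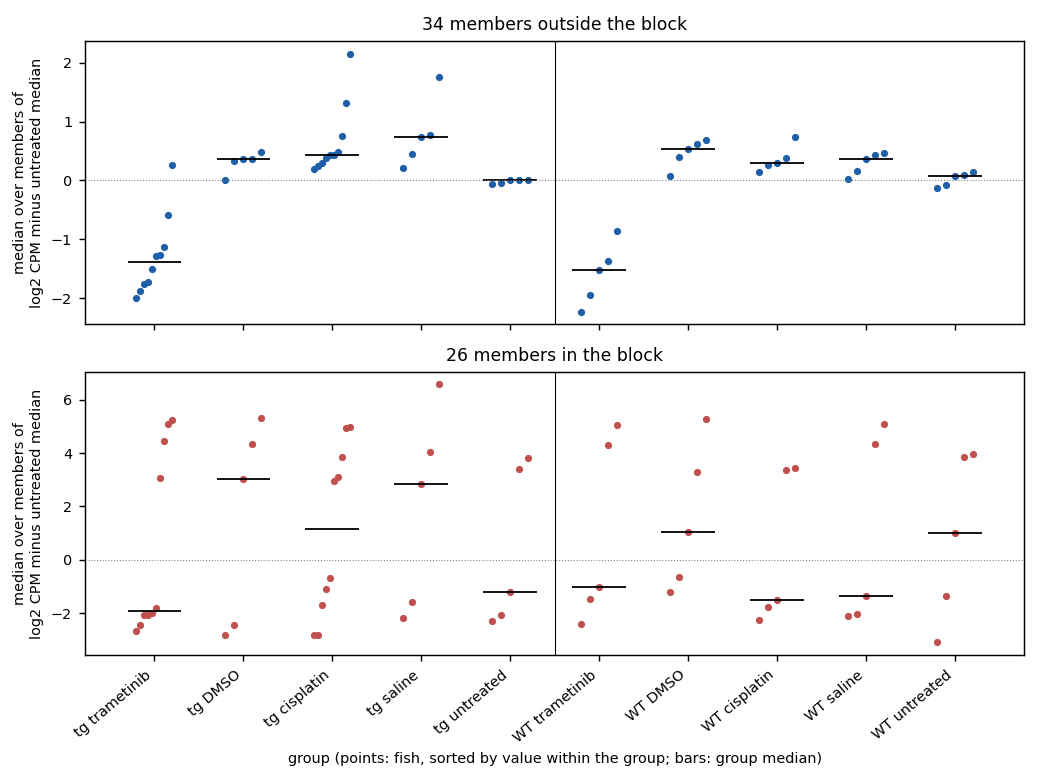
Median over members of log2 CPM minus the gene's median over the untreated fish of both genotypes together (vertical axis). Points are fish, sorted within the group, and bars are group medians. The upper panel holds the 34 members and the lower panel the 26 on/off members. For the 34, all trametinib fish but 1 lie below 0 and below every fish of the other groups, and for the 26 each group is split into fish well above and well below 0.

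The plot of each fish's offset from untreated fish gives the same levels fish by fish, with the trametinib and DMSO fish that the rule used. For the 34 members the lowest, median and highest offsets were -1.99, -1.39 and 0.27 in transgenic trametinib fish, 0.01, 0.36 and 0.49 in DMSO fish, 0.20, 0.43 and 2.15 in cisplatin fish, and 0.21, 0.74 and 1.76 in saline fish. In wild-type fish they were -2.23, -1.52 and -0.85 under trametinib, 0.07, 0.54 and 0.69 in DMSO, 0.15, 0.30 and 0.73 in cisplatin, and 0.02, 0.36 and 0.46 in saline. Transgenic trametinib fish 63 was the 1 trametinib fish at the level of the other groups. It was the highest of its group for 15 of the 34 members, or 44.1%, as for 27.8% of all genes.

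Fish 63 also had a low scaling factor. The 34 members stood above their group in it by a median of 1.35 on the log2 scale, by 1.53 in transgenic cisplatin fish 21 and by 1.47 in transgenic saline fish 17, where all genes stood at 0.01, -0.45 and -0.54. In the other 3 libraries of low factor it was 0.52 (fish 31), 0.37 (fish 40) and 0.19 (fish 47). The part of library composition in these levels was not tested. Without the 6 libraries the differences of medians between trametinib and DMSO of the 34 members ran from -6.41 to -0.47 in transgenic fish, 1 of them above -1, and from -4.92 to -1.18 in wild-type fish.

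The members that broke the order of group medians were few. ENSORLG00000019009 had a median of 2.66 CPM in transgenic trametinib fish and 0.835 CPM in transgenic cisplatin fish, and 1.76 and 1.63 CPM in the wild-type groups. ENSORLG00000010103 had 9.13 CPM in transgenic trametinib fish and 1.18 CPM in untreated transgenic fish, and 7.82 and 0.388 CPM in wild-type fish. In ENSORLG00000006612 the transgenic trametinib median was 0.692 CPM and the untreated one 0, and in wild-type fish the trametinib median of 0.266 CPM stood above the cisplatin median of 0.153 CPM. ENSORLG00000016919 had a median of 372 CPM in wild-type trametinib fish, above the 184 CPM of cisplatin fish and the 319.9 CPM of untreated fish. The last exceptions were ENSORLG00000018791 and ENSORLG00000014023 in transgenic fish, at 1.58 and 33.8 CPM under trametinib and 1.24 and 31.0 CPM untreated.

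Among the 34, few pairs varied together in the fish that the rule did not use. Of 561 pairs, 15 had a correlation above 0.5 both in all 35 fish and in the 31. The closest pair was ENSORLG00000014020 and ENSORLG00000014023, at 0.98 (0.96 in the 31 fish), which were named after their values were seen. ENSORLG00000017706 and ENSORLG00000017707 stood at 0.92 (0.68), and ENSORLG00000010373 and ENSORLG00000018051 at 0.86 (0.83). How reads of near-identical gene copies were counted is unknown here, and their part in such a pair was not tested.

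Comparisons that used no trametinib or DMSO fish could be tested, with edgeR's quasi-likelihood test over all genes and a Benjamini-Hochberg adjusted p under 0.05 as the call. Cisplatin against saline asked whether the other drug moved the members. In transgenic fish 1 of the 60 members was called, lower, where 0.337% of the genes were called in either direction and 0.268% lower. It was ENSORLG00000019009, with a lowest value of 0, a median of 0.835 and a highest value of 1.04 CPM in cisplatin fish, against 7.33, 6.22, 6.35, 0.337 and 6.30 CPM in saline fish. All cisplatin fish lay below the saline fish other than fish 17, and the value of 0 belonged to fish 21, both libraries with a low scaling factor. Its log2 fold change was -2.94 (SE 0.43, edgeR adjusted p = 0.00338, n = 10 and 5), and it remained called when any of the 15 fish was left out, at -3.22 to -2.81. In trametinib fish the same gene had a lowest value of 0.570, a median of 2.66 and a highest value of 9.76 CPM in transgenic fish, against 4.74, 11.1, 7.47, 5.75 and 7.37 CPM in DMSO.

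Without fish 21 the count of members called rose to 5, all lower in cisplatin. ENSORLG00000012622, ENSORLG00000014020, ENSORLG00000014023 and ENSORLG00000020916 joined ENSORLG00000019009, and 3.82% of all genes were called, so this count rests on 1 library. In wild-type fish 0 of 60 members were called by edgeR's test (0.0749% of genes), and 4 had an unadjusted p under 0.05. DESeq2 called 1, ENSORLG00000016919, where it called 1.22% of genes. ENSORLG00000019009 had 1.38, 1.66, 1.63, 1.76 and 1.06 CPM in wild-type cisplatin fish and 3.53, 4.30, 2.51, 4.61 and 3.39 CPM in wild-type saline fish, with no overlap, at a log2 fold change of -1.31 (SE 0.51, edgeR adjusted p = 0.429). The difference of the cisplatin response between genotypes was called for 0 members by edgeR's test (0.00535% of genes) and 0 by DESeq2 (0.198%). For 5 members its unadjusted p was under 0.05. The share of all genes at that p was not counted, so nothing is read from the 4 and the 5. For ENSORLG00000019009 the difference was -1.63 (SE 0.67, edgeR adjusted p = 0.515). Without the libraries of low scaling factor, edgeR called 1 member in transgenic fish, ENSORLG00000019009, where 1.63% of genes were called. In wild-type fish it then called 6, where 12.1% of genes were called, and for the difference 1, ENSORLG00000019009, where 10.3% were.

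Over the 34 members the median log2 fold change of cisplatin against saline was -0.14 in transgenic and 0.08 in wild-type fish, beside 0.05 and -0.00 over all genes. Over the 26 on/off members it was -1.46 and -1.16, with 0 called. The transgenic groups held 5 of 10 high fish in cisplatin and 3 of 5 in saline, and the wild-type groups 2 of 5 in each. In transgenic saline fish 17, a library of low scaling factor, the landmark gene stood at 958 CPM. The next transgenic saline fish had 43.1 CPM. The parts of these counts and of fish 17 in the fold changes were not tested.

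Saline against untreated fish compared the dish and the vehicle together with ordinary housing. In transgenic fish 18 of the 60 members were called, 15 higher and 3 lower in saline, which is 30% of them, beside 29.3% of all genes in either direction, 18.0% higher and 11.3% lower. Over the 60, the share is near that of all genes and is no result about the members as a list. All 18 were among the 34 members, 52.9% of them, and 0 were among the 26 on/off members. Without fish 17, the library with the lowest scaling factor, 13 of the 34 were called, 10 higher and 3 lower. These 13 were all among the 18, and the share of all genes called was 37.5%. The count among the 34 thus fell without 1 library while the share of all genes rose, and nothing is read from the 52.9%. The 5 that lost the call were ENSORLG00000000766, ENSORLG00000006172, ENSORLG00000018051, ENSORLG00000018944 and ENSORLG00000020916. In wild-type fish 5 members were called, 3 higher and 2 lower (13.6% of genes in either direction, 6.80% higher and 6.83% lower). Without fish 17, a transgenic fish of the same fit, 11 were called in wild-type fish, 8 higher and 3 lower, beside 37.2% of all genes. Leaving out any 1 of fish 33, 35, 36, 37, 68, 70 or 71 gave 3, beside 10.3% to 11.1% of all genes. The 2 genotypes share no fish, but the saline fish are also those of the cisplatin comparison.

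ENSORLG00000010103 was higher in saline in both genotypes. It had 36.7, 17.8, 31.3, 5.96 and 55.0 CPM in transgenic saline fish and 0.569, 1.18, 1.72, 0.960 and 1.60 CPM in untreated transgenic fish. Wild-type fish had 33, 25.5, 51.2, 26.0 and 45.7 CPM in saline and 0.433, 0.388, 0.190, 0.289 and 0.563 CPM without treatment. No saline fish came near an untreated fish. The log2 fold changes were 4.61 (SE 0.49, edgeR adjusted p = 5.26e-06) in transgenic and 6.59 (SE 0.54, adjusted p = 4.16e-07) in wild-type fish. In DMSO it stood at similar values, 24.6, 30.04, 25.9, 28.5 and 7.53 CPM in the transgenic group and 20.3, 40.3, 39.9, 32.3 and 46 CPM in the wild-type group. The trametinib medians of 9.13 CPM (transgenic) and 7.82 CPM (wild type) lay between the DMSO and the untreated medians. In transgenic fish most trametinib fish lay above the lowest DMSO fish, at 7.53 CPM, while the next DMSO fish stood at 24.6 CPM. In wild-type fish the highest trametinib fish, at 28.5 CPM, lay within the DMSO range.

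ENSORLG00000007161 went the other way. It had 0.659, 0.308, 0.878, 0 and 1.29 CPM in transgenic saline fish and 3.69, 5.23, 6.10, 5.06 and 5.94 CPM in untreated transgenic fish. Wild-type values were 0.529, 0.716, 1.21, 1.12 and 0.647 CPM in saline and 10.0, 14.2, 12.4, 6.83 and 8.61 CPM without treatment. Every fish kept in a dish with saline lay below every untreated fish. The log2 fold changes were -2.93 (SE 0.44, edgeR adjusted p = 0.000138) in transgenic and -3.63 (SE 0.45, adjusted p = 2.33e-05) in wild-type fish. Its trametinib medians were 0.355 CPM (transgenic) and 0.0979 CPM (wild type), below DMSO medians that were already low, at 1.02 and 1.07 CPM.

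ENSORLG00000013728, the member with the lowest score, was higher in saline in both genotypes. It had 14.1, 17.3, 7.61, 5.96 and 12.9 CPM in transgenic saline fish and 0.466, 6.14, 5.82, 4.69 and 0.959 CPM in untreated transgenic fish. In wild-type fish it had 8.39, 10.8, 6.81, 6.08 and 6.06 CPM in saline and 1.41, 0.990, 0.656, 1.96 and 0.163 CPM without treatment. The wild-type groups stood apart, and the transgenic ones overlapped by 1 untreated fish. The log2 fold change was 2.87 (SE 0.62, edgeR adjusted p = 0.00395) in wild-type fish and 1.69 (SE 0.59, adjusted p = 0.0382) in transgenic fish, where the call was lost without any 1 of fish 15, 18, 73, 76 or 77. The medians of its DMSO fish, 7.64 CPM (transgenic) and 8.96 CPM (wild type), likewise stood above the untreated medians of 4.69 and 0.990 CPM.

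ENSORLG00000006612 was almost absent from untreated transgenic fish, with 2 reads in all 5 of them together. It had 6.14, 0.359, 7.03, 0.112 and 4.60 CPM in transgenic saline fish, and a call at an edgeR adjusted p of 9.27e-05, for which no fold change is given because of the 2 reads. In wild-type fish it had 1.54, 0.281, 0.899, 2.54 and 1.92 CPM in saline and 0.273, 0.447, 0.0863, 0.0321 and 0.291 CPM without treatment. The lowest wild-type saline fish lay within the untreated range, the log2 fold change was 2.67 (SE 0.85, edgeR adjusted p = 0.0414), and the call was lost without any 1 of fish 33, 35, 36, 37, 68, 70, 71 or 72.

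ENSORLG00000017906 was lower in saline. It had 44.1, 41.4, 40.8, 11.4 and 48.8 CPM in transgenic saline fish and 69.9, 95.6, 95.0, 85.1 and 84.0 CPM in untreated transgenic fish. The log2 fold change was -1.20 (SE 0.27, edgeR adjusted p = 0.00398), and the call held without fish 17, which had 11.4 CPM. Among wild-type fish the values were 37.1, 67.8, 46, 48.6 and 39.7 CPM in saline and 100.2, 80.5, 90.6, 97.3 and 70.4 CPM without treatment. All saline fish lay below all untreated fish in both genotypes, yet the wild-type log2 fold change of -0.88 (SE 0.27, edgeR adjusted p = 0.0361) lost its call without any 1 of fish 33, 35, 36, 37, 68, 69, 70 or 71, at -0.89 to -0.79. ENSORLG00000008287 had 3.79, 3.18, 2.67, 0 and 3.24 CPM in transgenic saline fish and 4.85, 6.94, 7.35, 7.47 and 5.75 CPM in untreated transgenic fish. These groups did not overlap, and the log2 fold change of -1.28 (SE 0.47, edgeR adjusted p = 0.0453) lost its call without any 1 of fish 16, 18 or 73 to 77, at -1.37 to -1.19. Without fish 17, which had 0 CPM, the fold change was -1.03, and the call held.

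A pair of members with large changes in transgenic fish was picked after the values were seen. ENSORLG00000014023 had 90.9, 102, 325, 2414 and 190.5 CPM in transgenic saline fish and 42.1, 31.0, 30.4, 40.6 and 19.7 CPM in untreated transgenic fish, and ENSORLG00000014020 followed it at 39.1, 43.1, 134, 1046 and 69.8 CPM in saline and 21.2, 9.75, 10.9, 16.0 and 7.86 CPM untreated. The highest values, 2414 and 1046 CPM, were those of fish 17, and all saline fish lay above all untreated fish. Their log2 fold changes were 4.25 (SE 0.77, edgeR adjusted p = 0.000703) and 4.34 (SE 0.80, adjusted p = 0.000809), n = 5 each. Without fish 17 they were 2.41 (adjusted p = 0.000181) and 2.41 (adjusted p = 0.000323), so 1 library carried much of their size.

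Whether the saline response differed between genotypes was tested in the same fit, a comparison added after the data were seen. It was called for 0 of 60 members by edgeR's test (0.0483% of genes), and DESeq2 called 1, where it called 0.571% of genes. An unadjusted p under 0.05 was found for 11 members, but the share of all genes at that p was not counted. Without fish 17 edgeR called 1, ENSORLG00000006612, beside 0.45% of genes. The larger number of calls in transgenic than in wild-type fish is therefore not shown to be a difference of response.

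**Figure D5:**
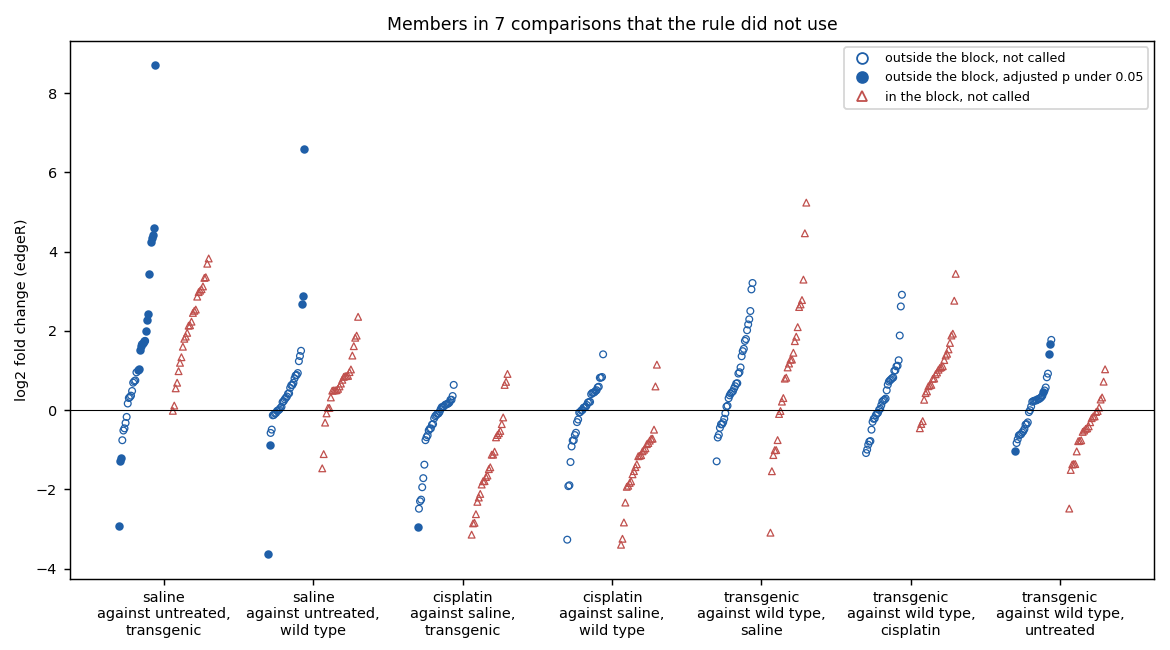
Log2 fold change of each member from edgeR (vertical axis) in 7 comparisons without trametinib or DMSO fish; within a comparison the points are sorted by value. Filled circles are called members, 18 and 5 of 60 in saline against untreated fish, 1 and 0 in cisplatin against saline and 0, 0 and 4 between genotypes; edgeR's test calls no on/off member (triangles), and the highest point, ENSORLG00000006612 in transgenic fish, rests on 2 untreated reads.

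Transgenic and wild-type fish were compared to see whether xmrk went with the level of the members. Among saline fish 0 of 60 members were called by edgeR's test (0.278% of genes), and among cisplatin fish 0 as well (1.29% of genes). DESeq2 called 5 in saline, where it called 3.11% of genes, and 2 in cisplatin, where it called 3.4%. In each comparison 12 members had an unadjusted p under 0.05 in edgeR's test. The share of all genes at that p was not counted, so nothing is read from the 12. Without the libraries of low scaling factor edgeR called 4 in saline and 7 in cisplatin, where 11.4% and 13.1% of genes were called, so neither count exceeded the share of all genes. In untreated fish 58 members passed the filter on low counts, all but ENSORLG00000006612 and ENSORLG00000011280, and 4 were called, 3 higher and 1 lower in transgenic fish (7.92% of genes in either direction, 4.81% higher, 3.11% lower). This share, 6.90%, is near that of all genes. It was 12.1% of the 33 tested among the 34 members and 0 of the 25 tested on/off members, and nothing is read from that split.

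The 4 were members described above and 1 more. ENSORLG00000010103 was higher in untreated transgenic than in untreated wild-type fish, by a log2 fold change of 1.67 (SE 0.36, edgeR adjusted p = 0.0188), and ENSORLG00000007161 was lower, by -1.02 (SE 0.20, adjusted p = 0.013). For both genes all transgenic fish lay on 1 side of all wild-type fish, and the calls held when any fish of the comparison was left out. ENSORLG00000019009 had 4.35, 10.8, 12.3, 3.51 and 6.17 CPM in untreated transgenic fish and 2.70, 3.53, 2.50, 1.96 and 2.89 CPM in untreated wild-type fish, which crossed in 1 pair. Its log2 fold change of 1.43 (SE 0.33, edgeR adjusted p = 0.0261) lost the call without any 1 of fish 74, 68, 70, 71 or 72, at 1.26 to 1.45. ENSORLG00000002467, the fourth, had 82.3, 92.6, 108, 79.3 and 87.3 CPM in untreated transgenic fish and 74.3, 59.8, 79.7, 57.5 and 53.4 CPM in untreated wild-type fish, overlapping by 1 pair. Its log2 fold change was 0.45 (SE 0.12, edgeR adjusted p = 0.0371). It was lost without any 1 of fish 69, 71, 72, 74, 75 or 77. None of the 4 was called when all 10 groups were fitted together, where 0.45% of genes were. The plot of 7 comparisons shows the wide fold changes of the on/off members, with no call by edgeR's test. Their spread within groups makes a call unlikely, so the lack of calls does not show a lack of change. For saline against untreated fish their median log2 fold change was 2.19 in transgenic and 0.64 in wild-type fish. Over all genes it was 0.01 and 0.07. It was positive for 25 and 22 of the 26, which switch together and are not independent. Over these 26 genes transgenic saline fish 17, of low scaling factor, stood above its group by a median of 5.75 on the log2 scale. The landmark gene had 43.1, 0.188, 29.9, 958 and 0.117 CPM in transgenic saline fish, the 958 CPM in fish 17. The part of that library in the 2.19 was not tested. DESeq2 called 2 of the on/off members between genotypes in saline, ENSORLG00000013069 and ENSORLG00000015051. It also called ENSORLG00000013069 for saline against untreated transgenic fish, where edgeR called it without fish 15 or fish 18.

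How many members the rule would keep depended on single fish of the wild-type groups, and the 2 kinds went apart. With group means in place of medians 32 of the 60 were kept, 3 of the 26 on/off members and 29 of the 34. Leaving out wild-type trametinib fish 49, 51 or 52 kept 34 members each, with 0, 0 and 1 of the on/off members among them. Leaving out wild-type DMSO fish 44, 46 or 47 kept 30, 34 and 30, and then 23, 19 and 22 of the on/off members stayed while 7, 15 and 8 of the 34 did. Without the 6 libraries of low scaling factor 32 were kept, 22 on/off members and 10 of the 34.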

How the data were processed

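The table that the authors deposited holds unnormalized counts of reads for 20459 Ensembl genes, and its 60 columns were matched to fish by their names. TopHat2 (version 2.2.4) and featureCounts are listed in the submitters' processing notes. The build, annotation, strand setting and handling of multiply mapping reads were not given in the sources used here. The analysis used R 4.3.3 and edgeR 4.0.16. Log2 CPM used TMM factors over all 60 libraries and a prior count of 2. CPM in the text used the same factors.

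Tests were edgeR's quasi-likelihood F test on groups (filterByExpr, TMM, robust dispersion), with Benjamini-Hochberg adjustment over all genes tested, in separate fits of saline with cisplatin fish, saline with untreated fish and untreated fish. Standard errors came from the F statistic. Trametinib and DMSO fish were fitted only to describe. P-values set a difference between groups against the spread between fish taken as independent. That spread was estimated over all groups of a fit, so fish outside a comparison can change its calls. The procedure was tested on simulated counts with the same spread for every gene and no library of unusual composition. That test therefore does not cover the on/off members or the libraries of low scaling factor. The members and lists were chosen with earlier results of these data known.

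Members were named if they had the 6 lowest scores, the 3 highest mean CPM, stood at the limit of 60, were among the strongest calls (2 in each direction per comparison) or had the extreme spread within groups. The 16 gene lists of pathways and cell types could not be used, as 0 held a matched gene, so the tissue was not checked against markers, nor xmrk against the genotype. Alternatives were RLE scaling, no filter, DESeq2 1.42.0, a single fit of all groups, omission of the 6 libraries of low factor or of single fish, and, for the rule, means, a prior count of 0.5 and no CPM minimum.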

Additional observations from a re-analysis of the deposited data

Results flagged for a closer look

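Dixon's criterion was applied to 190 groups of 5 or 10 fish. They covered the named members and the median offsets of both kinds of member. In 11 groups a fish lay far from the rest. The criterion marks about 1 in 20 groups of normally spread values. Fish of the on/off members split into high and low, so that rate does not hold for all 190 groups. Nothing is read from the number found. Transgenic saline fish 17, the library with the lowest scaling factor, stood apart in 4 of the 11. It was high for ENSORLG00000000766 (119.4 CPM) and low for ENSORLG00000019009 (0.337 CPM), ENSORLG00000008287 (0 CPM) and ENSORLG00000017906 (11.4 CPM). Transgenic cisplatin fish 21, also of low factor, had 0 CPM of ENSORLG00000019009, and wild-type DMSO fish 47, of low factor too, had 135.0 CPM of ENSORLG00000016919.

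The other values belonged to libraries of ordinary scaling factor. Untreated wild-type fish 72 was low for ENSORLG00000018051 (266 CPM), wild-type cisplatin fish 39 was low for ENSORLG00000019478 (75.5 CPM) and untreated wild-type fish 68 was high for ENSORLG00000008287 (7.81 CPM). Untreated transgenic fish 77 held the 2 reads of ENSORLG00000006612 (0.0336 CPM) in a group otherwise at 0, and transgenic DMSO fish 57 was low for ENSORLG00000010103 (7.53 CPM). None of these departures was tested for a cause.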

How the results depend on the processing

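No paired analysis was possible because each fish number occurs once in the labels. The rule kept 32 of its 60 members with means in place of medians, 32 without the 6 libraries of low scaling factor, and 30 to 58 when single fish were left out. For cisplatin against saline DESeq2 called 2 members in transgenic and 1 in wild-type fish, beside 194 and 246 genes in all (0.962% and 1.22%). Between genotypes it called 5 in saline, 2 in cisplatin and 9 in untreated fish, beside 628, 686 and 2734 genes (3.11%, 3.4% and 13.7%). It called 1 for the difference of the saline response, beside 115 genes (0.571%). For saline against untreated fish it called 20 in transgenic and 6 in wild-type fish, beside 30.6% and 18.3% of genes. The 20 held 14 of the 18 that edgeR called. Without the libraries of low factor, edgeR called 6 for cisplatin in wild-type fish, 1 for the difference of the cisplatin response, 4 between genotypes in saline, 7 in cisplatin, 11 for saline against untreated wild-type fish and 1 for the difference of the saline response, beside 12.1%, 10.3%, 11.4%, 13.1%, 37.2% and 0.45% of all genes. A single fit of all groups called 4 for cisplatin in transgenic fish, 7 between genotypes in saline, 3 for saline in wild-type fish and 0 between untreated genotypes, beside 2.19%, 19.8%, 14.5% and 0.45% of genes. The causes were not tested. Leaving out 1 fish of the groups compared gave 1 to 5 for cisplatin in transgenic fish, beside 0.16% to 3.82% of all genes. For saline it gave 13 to 20 in transgenic fish (22.6% to 37.5% of genes) and 3 to 5 in wild-type fish (9.65% to 11.1%). It gave 0 to 1 for the difference of the saline response (0.0375% to 0.45%), 2 to 5 between untreated genotypes (4.35% to 8.66%), and 0 in the other comparisons. The 3 came from leaving out fish 33, 35, 36, 37, 68, 70 or 71, and the 2 from fish 74, 71 or 72. Of 182 alternatives for named genes, 158 kept direction and call, 24 lost the call and 0 changed sign. Untreated fish held no library of low factor, so that alternative gave no value there.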

Other observations

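Several members carry identifiers that follow each other closely. ENSORLG00000014020, ENSORLG00000014023 and ENSORLG00000014024 belong to the 34 members that are not on/off, as do ENSORLG00000017706 and ENSORLG00000017707. ENSORLG00000017881 and ENSORLG00000017882 are both on/off members, whereas ENSORLG00000018152 is an on/off member and ENSORLG00000018153 is not. Whether such genes are neighbours or copies of each other was not tested, since no annotation was matched. ENSORLG00000018153 had 15.7, 57.6, 17.1, 49.7 and 14.2 CPM in transgenic saline fish and 39.7, 51.7, 56.6, 16.8 and 28.1 CPM in untreated transgenic fish. Its spread over these fish did not follow the alternation of ENSORLG00000002406. Over the 35 untreated, saline and cisplatin fish of both genotypes, group means removed, its correlation with the landmark gene of the on/off members was -0.01.

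ENSORLG00000020046, the second gene outside the limit of 60, correlated with the same landmark gene at 0.90 (0.94 in the 31 fish), so the on/off pattern continues past the limit. ENSORLG00000019889, the first gene outside it, had 0.995, 3.16, 3.75, 4.35 and 1.64 CPM in wild-type trametinib fish and 10.6, 13.4, 14.4, 32.6 and 17.2 CPM in wild-type DMSO fish, with no overlap. In transgenic trametinib fish its highest value, 20.8 CPM, exceeded every transgenic DMSO fish, which lay between 8.64 and 16.8 CPM. That value was of fish 63, a library of low scaling factor, and the next trametinib fish stood at 10.5 CPM, within the DMSO range.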
